A study of Mus musculus with 4 samples.

Results

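The genes described here are 8 that are used to mark polymorphonuclear myeloid-derived suppressor cells (PMN-MDSCs) or to separate them from monocytic ones: *Ly6g*, *Ly6c1*, *Ly6c2*, *Cd84*, *Olr1*, *Slc27a2*, *Gpr84* and *Cd33*. They were taken by gene symbol, and all 8 were found among the 28585 genes listed in each library. The data are 4 bulk RNA sequencing libraries, each from 300000 PMN-MDSCs of the spleens of pups on postnatal day 7. PMN-MDSCs of *Dhps* ΔLysm pups (*Dhps* fl/fl *Lysm* cre, labelled *Dhps* cko, 2 libraries) were compared with those of *Dhps* fl/fl pups (labelled *Dhps* flox, 2 libraries). Both genotypes carried the floxed *Dhps* alleles on a C57BL/6J background, and Cre was expressed from the lysozyme M locus, which is active in granulocytes, monocytes and macrophages. *Dhps* encodes deoxyhypusine synthase, the enzyme that starts the conversion of a lysine of the translation factor eIF5A into hypusine, with spermidine as the donor. Cells were sorted as CD11b+ Ly6C lo/- Ly6G+, so the proteins of *Ly6g*, *Ly6c1*, *Ly6c2* and *Itgam* (CD11b) were part of the gate, and their RNA levels are those of cells selected on them. The genotypes were littermates, and which litters went into which library is not given. The sources used here also do not say how many pups went into a library or whether libraries of a genotype came from separate pups, so that the spread between replicates may be technical.

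Myeloid-derived suppressor cells are immature or activated myeloid cells that restrain T cells. In mice they are recognized as CD11b+ cells and divided by the Ly6 proteins, small GPI-anchored surface proteins, into a polymorphonuclear kind with Ly6G and little Ly6C and a monocytic kind with much Ly6C and no Ly6G. Since Ly6G does not exist in humans, other surface proteins are used to recognize such cells there or in tumors, among them CD33, the lectin-like oxidized LDL receptor LOX-1 (*Olr1*), the SLAM family receptor CD84, the fatty acid transport protein FATP2 (*Slc27a2*) and the receptor for medium-chain fatty acids GPR84.

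Ly6C is the product of a pair of nearly identical genes, *Ly6c1* and *Ly6c2*, while Ly6G comes from the more distant *Ly6g*. The first 300 coding bases of the 3 genes are printed because they show how far reads can tell these genes apart. They were read from GENCODE M21 (GRCm38) starting at the start codon. In *Ly6c1* and *Ly6c2*, capitals mark the bases that differ between both genes, and in *Ly6g* those that differ from *Ly6c2* or have no counterpart in it.
Ly6c1: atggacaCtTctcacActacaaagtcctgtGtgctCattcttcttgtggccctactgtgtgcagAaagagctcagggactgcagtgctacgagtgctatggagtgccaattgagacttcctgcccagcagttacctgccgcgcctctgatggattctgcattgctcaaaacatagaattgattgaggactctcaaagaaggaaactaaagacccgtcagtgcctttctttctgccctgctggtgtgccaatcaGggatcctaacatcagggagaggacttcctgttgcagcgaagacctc
Ly6c2: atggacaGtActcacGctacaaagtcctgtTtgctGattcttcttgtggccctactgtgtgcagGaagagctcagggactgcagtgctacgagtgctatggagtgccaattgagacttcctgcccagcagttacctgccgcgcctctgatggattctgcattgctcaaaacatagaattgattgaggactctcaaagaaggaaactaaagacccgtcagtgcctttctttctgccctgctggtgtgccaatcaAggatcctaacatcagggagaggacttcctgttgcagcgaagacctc
Ly6g: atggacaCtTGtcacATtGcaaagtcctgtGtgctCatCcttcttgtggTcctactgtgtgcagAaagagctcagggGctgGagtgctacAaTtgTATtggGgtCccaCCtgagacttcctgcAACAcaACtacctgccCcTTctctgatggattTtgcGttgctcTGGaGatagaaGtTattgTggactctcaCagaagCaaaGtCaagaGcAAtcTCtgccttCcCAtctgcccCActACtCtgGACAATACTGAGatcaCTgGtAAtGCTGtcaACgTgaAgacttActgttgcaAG

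*Ly6c1* and *Ly6c2* differed at 9 of 393 coding bases (97.7% identity), and 6 of the 9 lay in the first 100 bases and 7 in the 300 bases shown. The longest stretch without a difference was 188 bases. *Ly6g* had 78.6% identity with *Ly6c2* and 79.9% with *Ly6c1*, and its longest stretch shared with *Ly6c2* in the whole coding sequence was 35 bases. Over the whole transcripts, 36.7% of all 50-base windows of *Ly6c1* and 33% of those of *Ly6c2* occurred in the transcript of another gene, as did 15.3% and 15.8% of 100-base windows. For *Ly6g* the share was 0.448% at 50 bases and 0 at 100 bases. The read length and the treatment of reads with several matches were not given in the sources used here, so the division of reads between *Ly6c1* and *Ly6c2* is uncertain, and that of *Ly6g* is much less so. Of the other 5 genes, *Cd84* and *Cd33* shared 1.05% and 0.546% of 50-base windows with other genes, and *Olr1*, *Slc27a2* and *Gpr84* shared none. The strand setting was not given either. Exons of *Gpr84* overlap Gm49482 on the opposite strand over 681 bases, and this gene was listed at 0 in all 4 libraries. Exons of *Slc27a2* overlap Gm26697 on the opposite strand over 419 bases (11.2%), and values of Gm26697 are not used here, so its reads could not be told apart from those of *Slc27a2*.

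The sequence depth, estimated from the steps between low values, was about 29600000 to 32800000 fragments per library. The steps were weak (scores of 0.143 to 0.195, where 1 is the highest possible), so the depth is a rough estimate. In each library, 10611 to 10729 genes reached 1 FPKM (fragments relative to the length of the transcript and to all mapped fragments). *Dhps*, the targeted gene, was at 2.38 and 2.59 FPKM in *Dhps* ΔLysm, compared with 3.57 and 3.11 FPKM in *Dhps* fl/fl (log2 fold change -0.41, SE 0.13, limma adjusted p = 0.629), lower in 2 of 2 libraries. *Itgam*, the remaining gene of the gate, was at 563 to 582 FPKM in *Dhps* ΔLysm, compared with 571 to 595 FPKM in *Dhps* fl/fl. The 12 neutrophil genes examined (such as *Ngp*, *S100a9*, *Camp* and *Ltf*) summed to 75308 to 82435 FPKM per library, and none was at 0. The summed levels of the lists for other cells were far lower than this, although *Hba-a1*, an erythroid hemoglobin gene, reached 165.3 to 261 FPKM. In bulk samples, fewer cells of a kind and less RNA per cell cannot be told apart.

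The 8 marker genes spanned more than 3 orders of magnitude in level. *Ly6g* (mean of 4 libraries 210.9 FPKM) and *Cd33* stood first and did not separate. The range of *Ly6g* was 184.8 to 241.6 FPKM and that of *Cd33* 200.7 to 210.8 FPKM, and *Ly6g* was the higher in 2 of 4 libraries. *Ly6c2* came next, 1.19-fold below *Cd33* without overlap of their ranges. The step from *Ly6c2* to *Gpr84* was 4.98-fold. *Gpr84* lay 1.33-fold above *Cd84* without overlap, whereas the ranges of *Cd84* and *Olr1* overlapped although *Cd84* was the higher in all 4 libraries. *Ly6c1* was 2.61-fold below *Olr1*. *Slc27a2* was last, 65.4-fold below *Ly6c1*. Among the 17948 genes that averaged 0.1 FPKM or more, *Ly6g*, *Cd33* and *Ly6c2* ranked at percentile 99 or above in every library, *Gpr84*, *Cd84* and *Olr1* at percentiles 90.9 to 94.5, *Ly6c1* at 75.6 to 80, and *Slc27a2* at 6.67 to 13.2.

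**Figure D1:**
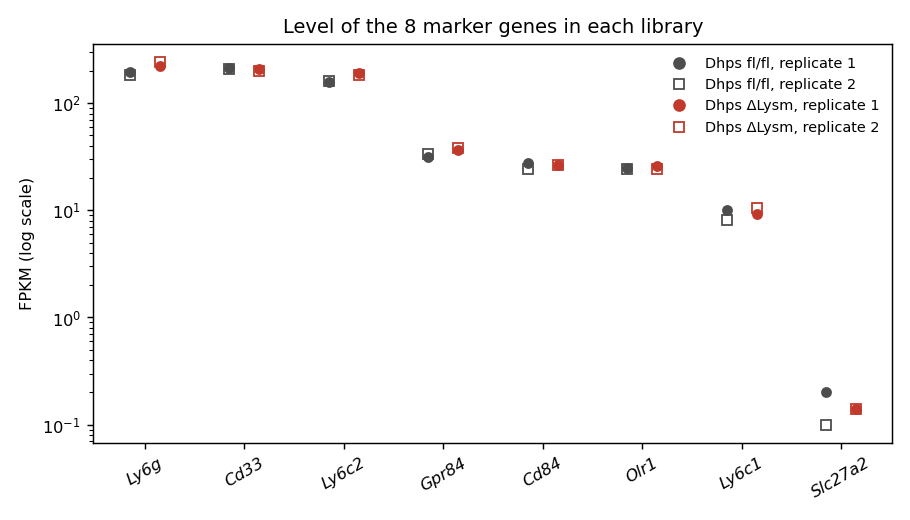
FPKM of each of the 8 marker genes (horizontal axis) in each library on a log scale, with black symbols for Dhps fl/fl and red symbols for Dhps ΔLysm, 1 symbol per library. Ly6g, Cd33 and Ly6c2 lie between 158 and 242 FPKM, Slc27a2 lies at or below 0.2 FPKM, and the genotypes stand apart for Ly6g, Ly6c2 and Gpr84 by less than the steps between most genes.

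In the comparison of genotypes, *Ly6g*, *Ly6c2* and *Gpr84* had the largest differences among the 8 genes, between 1.14-fold and 1.22-fold higher in *Dhps* ΔLysm, and *Cd84*, *Olr1* and *Cd33* had log2 fold changes between -0.03 and 0.02. No marker passed the adjusted p of 0.05 in limma across all genes, where 1 gene of 17948 did (0.00557%). At an unadjusted p under 0.05, 3 of the 8 were higher in *Dhps* ΔLysm and 0 were lower, and over all genes tested 4.72% were higher and 2.28% lower by this rule. Without the mean-variance trend in limma, 0 of the 8 were higher at that p, 2 were (*Ly6g* and *Ly6c2*) after scaling to TPM or quantile normalization, and 1 or 2 were when a library was left out. Of all genes at that p, 847 of 1257 were higher, 628 of 1114 after scaling to TPM. In the same 3 genes both *Dhps* ΔLysm libraries lay above both *Dhps* fl/fl libraries, which held for 20.0% of all genes tested (the genotypes did not overlap in either direction for 36.0%). On the log2 scale, the 8 markers had a median change of 0.07 and all genes tested had one of 0.01. All fold changes refer to log2(FPKM + 0.1), *Dhps* ΔLysm minus *Dhps* fl/fl.

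Most markers of other cells also had higher values in *Dhps* ΔLysm, and none passed the adjusted threshold. A positive sign was seen in 52.2% of all genes tested and a higher value at an unadjusted p under 0.05 in 4.72%. Of 10 monocyte markers, 8 had a positive sign and 2 were higher at an unadjusted p under 0.05, *Ctss* and *Ccr2*, and their summed level was 143.4 to 147.2 FPKM in *Dhps* ΔLysm and 124.6 to 134.4 FPKM in *Dhps* fl/fl. Without *Ctss*, chosen after its values had been seen, the sums overlapped (95 and 88.9 against 82.9 and 94.8 FPKM), and *Nr4a1* and *Klf4* had a negative sign. *Ccr2*, the chemokine receptor of classical monocytes, was at 2.95 and 2.73 against 2.06 and 2 FPKM. Of 8 macrophage markers, 6 had a positive sign and 3 were higher at that p, the complement genes *C1qa*, *C1qb* and *C1qc*, with sums of 121.1 to 128 against 90.5 to 101 FPKM, and without these 3 the sums overlapped (47.1 and 48.9 against 47.2 and 40.9 FPKM). Of 7 B cell markers, 7 had a positive sign and 4 were higher at that p (among them *Ighm*, *Ms4a1* and *Cd79a*), with sums of 64.6 to 66.7 against 41.4 to 49.9 FPKM. Of 7 T and NK cell markers tested, 2 were higher (*Trac* and *Trbc2*; sums of the list of 8, 14 to 17.5 against 8.03 to 11.8 FPKM), of 6 eosinophil and basophil markers 1 (*Prg2*; 18.8 to 19 against 10.4 to 14.8 FPKM), and of 4 endothelial markers tested 1 (*Egfl7*; sums of the list of 6, 1.07 to 1.4 against 0.67 to 0.87 FPKM). No marker of these lists was at 0 in all 4 libraries, and 0 markers of them were lower at that p. The sum of the erythroid and platelet list overlapped, at 218.2 and 243.6 against 170.4 and 271 FPKM. Of the 12 neutrophil markers 11 had a positive sign (median 0.08), 0 at an unadjusted p under 0.05. Both *Dhps* ΔLysm sums of the neutrophil list were the higher ones too, at 79936 and 82435 against 79696 and 75308 FPKM. The part of the other cells in the differences of *Ly6g*, *Ly6c2*, *Gpr84* and the other Ly6 genes was not tested.

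**Figure D2:**
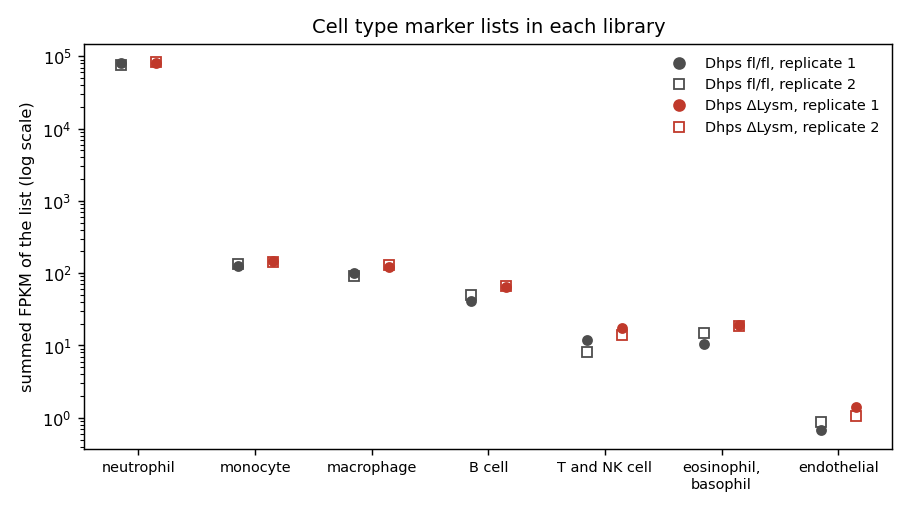
Summed FPKM (log scale) of 7 marker lists of cell types in each library, with black symbols for Dhps fl/fl and red symbols for Dhps ΔLysm. In all 7 lists, the neutrophil list included, the sums of both Dhps ΔLysm libraries lie above those of both Dhps fl/fl libraries. Of all single genes tested, 20.0% did so. The neutrophil sum is the largest by more than 2 orders of magnitude.

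*Ly6g* encodes the antigen that defines granulocytes and PMN-MDSCs in mice. It lies on chr15:75155240-75159126 on the plus strand. *Ly6g* was at 222.2 and 241.6 FPKM in *Dhps* ΔLysm, compared with 195 and 184.8 FPKM in *Dhps* fl/fl. Both *Dhps* ΔLysm libraries were the higher ones, with means of 231.9 ± 13.7 (SD, n = 2) and 189.9 ± 7.18 FPKM (SD, n = 2). The log2 fold change was 0.29 (SE 0.067, 95% interval 0.11 to 0.46, 1.22-fold, limma adjusted p = 0.529).

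*Ly6c2* is the Ly6C gene that monocytes use most, and granulocytes carry less of its protein. It lies on chr15:75108158-75111970 on the minus strand. *Ly6c2* was at 192.2 and 183.8 FPKM in *Dhps* ΔLysm, compared with 158 and 160.8 FPKM in *Dhps* fl/fl. Again the genotypes did not overlap, and replicates of a genotype differed by less than the genotypes did. The log2 fold change was 0.24 (SE 0.054, 95% interval 0.10 to 0.38, 1.18-fold, limma adjusted p = 0.515), and after quantile normalization it was 0.14 (limma adjusted p = 0.709). Without the first *Dhps* ΔLysm library *Ly6c2* no longer had an unadjusted p under 0.05, nor did *Ly6g* without the second library of either genotype.

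*Ly6c1* codes for the other Ly6C protein and is known from endothelium and lymphocytes as well as myeloid cells. It lies on chr15:75044018-75048830 on the minus strand. *Ly6c1* was at 9.19 and 10.5 FPKM in *Dhps* ΔLysm, compared with 10 and 8.18 FPKM in *Dhps* fl/fl. The genotypes overlapped, and the log2 fold change was 0.12 (SE 0.131, 95% interval -0.22 to 0.46, limma adjusted p = 0.89). Without the second *Dhps* fl/fl library it was -0.03.

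Because reads may be divided between the Ly6C genes, their sum and ratio were also computed. The sum of *Ly6c1* and *Ly6c2* was 201.4 and 194.3 FPKM in *Dhps* ΔLysm and 168 and 169 FPKM in *Dhps* fl/fl. *Ly6c1* held 4.56% and 5.42% of this sum in *Dhps* ΔLysm and 5.97% and 4.84% in *Dhps* fl/fl, as the deposited values divide it, and this division is uncertain. In cells sorted on both proteins, the ratio of *Ly6g* RNA to *Ly6c2* RNA measures neither the surface antigens nor the balance of polymorphonuclear and monocytic cells. Within a library it was 1.16 and 1.31 in *Dhps* ΔLysm and 1.23 and 1.15 in *Dhps* fl/fl. These values overlapped (difference of mean log2 ratios 0.05, 2-sided exact permutation p = 0.667, where 2 against 2 libraries allow no p below 0.333). The ratio of *Ly6c1* to *Ly6c2* was 0.0478 and 0.0574 in *Dhps* ΔLysm and 0.0634 and 0.0509 in *Dhps* fl/fl, which also overlapped (difference of mean log2 ratios -0.12, 2-sided exact permutation p = 0.667).

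The regions before the transcript starts of the 3 genes are printed since *Ly6g* and *Ly6c2* are near each other and both were higher in *Dhps* ΔLysm by similar amounts. Each shows the 250 bases upstream of the first RefSeq start, in the direction of the gene (GRCm38). They lie at chr15:75155011-75155260 (plus strand) for *Ly6g*, chr15:75111972-75112221 (minus strand) for *Ly6c2* and chr15:75048838-75049087 (minus strand) for *Ly6c1*. Capitals mark GAGGAAGT, the core bound by the myeloid factor PU.1, and TTGCNNAA, letters of the kind bound by the C/EBP factors of granulocytes, on either strand.
Ly6g upstream: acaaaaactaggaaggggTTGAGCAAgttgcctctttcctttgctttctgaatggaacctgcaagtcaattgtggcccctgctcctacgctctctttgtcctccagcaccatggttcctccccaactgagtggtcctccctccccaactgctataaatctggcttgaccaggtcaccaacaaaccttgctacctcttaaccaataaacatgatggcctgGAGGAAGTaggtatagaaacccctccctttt
Ly6c2 upstream: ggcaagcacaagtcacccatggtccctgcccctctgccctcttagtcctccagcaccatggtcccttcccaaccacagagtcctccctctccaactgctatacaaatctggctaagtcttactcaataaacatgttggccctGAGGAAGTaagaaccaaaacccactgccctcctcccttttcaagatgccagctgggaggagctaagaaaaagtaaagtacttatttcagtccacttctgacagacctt
Ly6c1 upstream: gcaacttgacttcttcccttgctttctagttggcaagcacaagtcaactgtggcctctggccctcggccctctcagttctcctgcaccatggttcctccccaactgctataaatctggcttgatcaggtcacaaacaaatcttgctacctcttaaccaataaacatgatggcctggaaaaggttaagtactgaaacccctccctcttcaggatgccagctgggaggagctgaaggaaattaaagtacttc

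The first motif occurred once before *Ly6g* and once before *Ly6c2*, starting 31 and 108 bases upstream. The second occurred once before *Ly6g*, 232 bases upstream and on the opposite strand. Neither was found before the first start of *Ly6c1*. Before the second RefSeq starts, the PU.1 letters had 1 match for *Ly6c1*, 1 for *Ly6g* and 2 for *Ly6c2*, and the C/EBP letters had 0 for these 3 genes. *Gpr84* and the other 4 markers had no match to either motif. Of 32851 RefSeq windows of this length, 2.44% held the PU.1 letters and 9.56% the C/EBP letters. The motifs were chosen after these sequences had been seen, do not overlap here, and are matches of letters only. Their part in the differences between genotypes was not tested, and matches before the other Ly6 genes were not listed.

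Other Ly6 genes had the same sign of difference as *Ly6g* and *Ly6c2*. Of 21 genes of the family listed besides the markers, 16 were used and 7 passed the filter on low values. All 7 had a positive log2 fold change (median 0.41), as did 52.2% of all genes tested, and 4 of them had an unadjusted p under 0.05 (4.72% of all genes were higher at that p), with 0 lower. *Ly6e*, the most abundant of the 7 and the receptor gene for syncytin-A in the mouse placenta, was at 29.9 and 29.4 FPKM in *Dhps* ΔLysm, compared with 19.9 and 25 FPKM in *Dhps* fl/fl (log2 fold change 0.41, limma adjusted p = 0.591). *Ly6i*, which is found on bone marrow myeloid cells, was at 3.6 and 3.07 against 1.3 and 1.79 FPKM (log2 fold change 1.07, limma adjusted p = 0.486). *Ly6d*, a marker of B lineage commitment, was at 6.02 and 5.45 against 4.16 and 3.74 FPKM. In the same libraries the B cell markers summed to 64.6 to 66.7 against 41.4 to 49.9 FPKM. *Ly6g5b*, which lies outside the chromosome 15 cluster, was at 4.19 and 4.24 against 3.28 and 3.21 FPKM. None of these passed the adjusted threshold. The same sign was seen in *Ly6a2*, which starts between *Ly6c2* and *Ly6g* and was named after its values had been seen. It was more abundant than any of the 8 markers, at 580.4 and 588 FPKM in *Dhps* ΔLysm and 521.2 and 519.6 FPKM in *Dhps* fl/fl (log2 fold change 0.17, SE 0.054, limma adjusted p = 0.643), and *Ly6c2* shares some 50-base windows with it. A window of 500 kb to either side of *Ly6g* is no separate count. It was centered on a gene that was itself higher, and it holds *Ly6c2* and most Ly6 genes counted above. In it, 15 of 21 genes tested had a positive log2 fold change (median 0.25), against 52.2% of all genes. At an unadjusted p under 0.05, 7 were higher and 0 lower. The 7 were *Ly6g*, *Ly6c2*, *Ly6a2*, *Ly6d*, *Ly6e* and *Ly6i*, already described, and *Them6*, which was named after its values had been seen (0.51 and 0.58 against 0.26 and 0.24 FPKM).

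**Figure D3:**
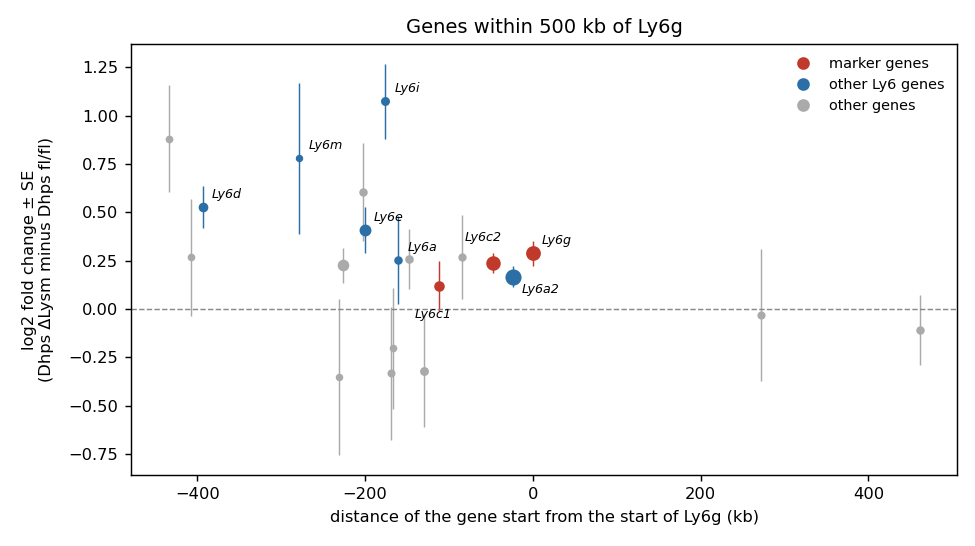
Log2 fold change (Dhps ΔLysm minus Dhps fl/fl, 2 libraries each) with its standard error (vertical line) for the 21 genes tested within 500 kb of the start of Ly6g, by distance in kb; larger points are more abundant genes. Red points are marker genes, blue points other Ly6 genes and gray points other genes. All 9 Ly6 genes drawn lie above 0, the markers between 0.12 and 0.29.

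*Cd84* encodes a receptor of the SLAM family that binds itself on neighboring cells. It lies on chr1:171839697-171890718 on the plus strand. *Cd84* was at 26.5 and 26.3 FPKM in *Dhps* ΔLysm, compared with 27.6 and 24.5 FPKM in *Dhps* fl/fl. The *Dhps* ΔLysm values lay inside the range of the controls, and the log2 fold change of 0.02 (SE 0.077, limma adjusted p = 0.971) had a 95% interval from 0.886-fold to 1.17-fold. Its sign turned to -0.01 after scaling to TPM. Among the SLAM receptors and their adaptors, 8 of 11 were tested, 8 had a positive sign (52.2% of all genes did; median 0.27) and 2 were higher at an unadjusted p under 0.05 (4.72% of all genes). *Cd84* was the most abundant of them. Several of these receptors are also expressed by lymphocytes, whose T and NK cell markers summed to 14 to 17.5 against 8.03 to 11.8 FPKM in the same libraries, and their part was not tested. *Cd48*, the ligand of the receptor 2B4, was at 9.54 and 9.76 against 8.51 and 8.45 FPKM (log2 fold change 0.18, limma adjusted p = 0.71), and *Slamf9* was at 0.59 and 0.46 against 0.23 and 0.24 FPKM (log2 fold change 0.89, limma adjusted p = 0.646).

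*Olr1* encodes LOX-1, a C-type lectin-like scavenger receptor for oxidized LDL. It lies on chr6:129485244-129507165 on the minus strand. *Olr1* was at 25.7 and 24.2 FPKM in *Dhps* ΔLysm, compared with 25.1 and 24.1 FPKM in *Dhps* fl/fl. The values overlapped, and the 95% interval ran from 0.902-fold to 1.14-fold (log2 fold change 0.02, SE 0.065, limma adjusted p = 0.975), with a negative sign after quantile normalization and after scaling to TPM. Of 12 other C-type lectin genes, mostly of myeloid cells, 8 had a positive sign (52.2% of all genes did; median 0.06) and 2 were higher at an unadjusted p under 0.05 (4.72% of all genes). *Clec4n*, the gene of the fungal receptor dectin-2, was at 9.53 and 9.25 FPKM in *Dhps* ΔLysm, compared with 5.86 and 6.07 FPKM in *Dhps* fl/fl (log2 fold change 0.65, SE 0.078, limma adjusted p = 0.349). *Clec2d*, a ligand gene for NK cell receptors that lymphocytes express, was at 9.61 and 8.52 against 6.3 and 6.41 FPKM (limma adjusted p = 0.488). *Clec4a2*, the most abundant of this list, overlapped between genotypes (73.8 and 81.9 against 93.1 and 67.7 FPKM). Of 6 other receptors for modified lipoproteins, 1 was higher at an unadjusted p under 0.05 (4.72% of all genes; median 0.06), namely *Cd68*, the macrophage sialomucin, at 45 and 41.9 against 33.6 and 37.6 FPKM (limma adjusted p = 0.574).

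*Slc27a2* encodes FATP2, a transporter and acyl-CoA synthetase for long and very long chain fatty acids. It lies on chr2:126552407-126588243 on the plus strand. *Slc27a2* was at 0.14 and 0.14 FPKM in *Dhps* ΔLysm, compared with 0.2 and 0.1 FPKM in *Dhps* fl/fl, about 9 to 17 fragments per library at the estimated depth. The genotypes overlapped, and the 95% interval from 0.464-fold to 2.07-fold included differences of either sign (log2 fold change -0.03, SE 0.419, limma adjusted p = 0.996). Without the first *Dhps* fl/fl library the log2 fold change was 0.26. *Slc27a4*, which encodes FATP4, was the abundant member of the family, at 122.1 and 127.1 FPKM in *Dhps* ΔLysm and 123.7 and 128 FPKM in *Dhps* fl/fl. *Acsl1*, the leading long-chain acyl-CoA synthetase gene, was at 39.9 and 38.4 against 40.2 and 42.3 FPKM. Of 10 transporter and synthetase genes 7 were tested, 0 had an unadjusted p under 0.05, and the median log2 fold change was -0.07.

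*Gpr84* encodes a G protein-coupled receptor for medium-chain fatty acids and their hydroxylated forms. It lies on chr15:103308235-103310612 on the minus strand, far from the Ly6 cluster. *Gpr84* was at 36.3 and 38 FPKM in *Dhps* ΔLysm, compared with 31.8 and 33.5 FPKM in *Dhps* fl/fl. The genotypes did not overlap, with means of 37.1 ± 1.21 and 32.7 ± 1.24 FPKM (SD, n = 2 each). The log2 fold change was 0.19 (SE 0.062, 95% interval 1.02-fold to 1.27-fold, limma adjusted p = 0.652), and its unadjusted p stayed under 0.05 only when the second *Dhps* fl/fl library was the one left out. Of 7 other receptors for fatty acids and related metabolites, 3 were tested, 0 at an unadjusted p under 0.05 (median -0.05). *Ffar2*, the receptor gene for short-chain fatty acids, stood next in level with 18.7 and 18.7 FPKM in *Dhps* ΔLysm and 19.4 and 19.4 FPKM in *Dhps* fl/fl.

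*Cd33* encodes a Siglec, a lectin for sialic acids, and lies on chr7:43524216-43544428 on the minus strand. *Cd33* was at 209.1 and 200.7 FPKM in *Dhps* ΔLysm, compared with 210.8 and 206.8 FPKM in *Dhps* fl/fl. The values overlapped, and the 95% interval from 0.892-fold to 1.08-fold included no change (log2 fold change -0.03, SE 0.054, limma adjusted p = 0.952). *Siglece*, an inhibitory Siglec gene of mouse neutrophils, was at 124.1 and 117.8 against 116.5 and 118 FPKM. Of 7 other Siglec genes tested, 1 was higher at an unadjusted p under 0.05 (4.72% of all genes; median 0.37), namely the B cell gene *Cd22* at 1.93 and 1.96 against 1.01 and 1.22 FPKM (limma adjusted p = 0.51). The median includes *Siglech* (means of 0.175 against 0.085 FPKM), which passed the filter on low values only through *Dhps* ΔLysm. Among the phosphatase and adaptor genes of inhibitory and activating receptors, 1 of 4 was higher at that p (4.72% of all genes; median 0.06). This was *Tyrobp*, which encodes the adaptor DAP12, at 425.6 and 424.7 FPKM in *Dhps* ΔLysm and 376.5 and 350.2 FPKM in *Dhps* fl/fl (log2 fold change 0.23, limma adjusted p = 0.568).

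**Figure D4:**
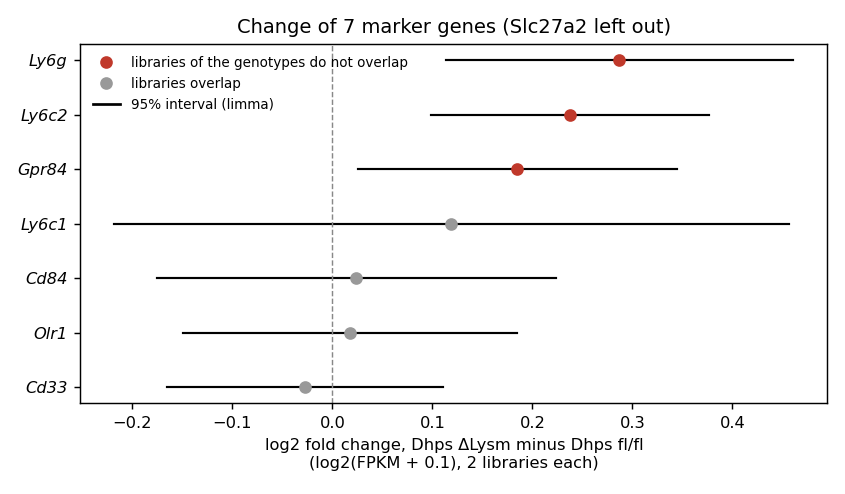
Log2 fold change (horizontal axis, Dhps ΔLysm minus Dhps fl/fl) with its 95% interval from limma for 7 marker genes; Slc27a2 is left out because its interval is far wider. Red points are genes whose libraries do not overlap between genotypes. The intervals of Ly6g, Ly6c2 and Gpr84 lie above 0 before adjustment for the number of genes, and those of the other 4 genes span 0.

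**Figure D5:**
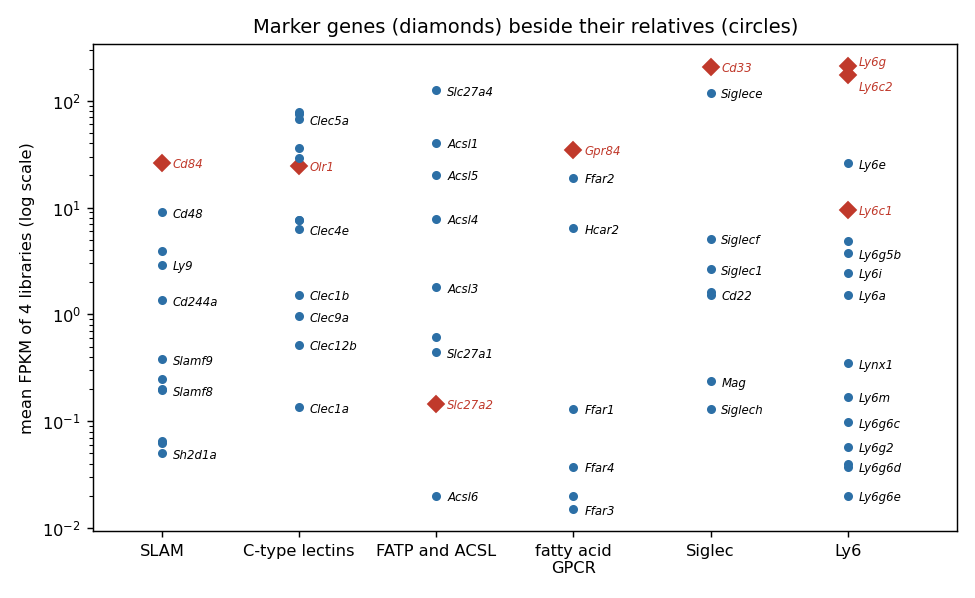
Mean FPKM of 4 libraries (log scale) of the marker genes (red diamonds) and of the other genes of their families or functions (blue circles), with 1 column per family and not every circle named; genes with a mean under 0.01 FPKM and Ly6a2 are not drawn. Cd84, Gpr84, Cd33 and Ly6g stand at the top of their columns and Slc27a2 stands nearly 3 orders of magnitude below Slc27a4.

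Other genes used to mark MDSCs were examined beside the 8. Of 14 tested, 4 were higher and 1 lower at an unadjusted p under 0.05 (4.72% and 2.28% of all genes tested; median log2 fold change 0.10), and none passed the adjusted threshold. The higher genes included *Clec4n*, described above, *Ifitm1*, an interferon-induced membrane protein gene, at 21.4 and 20.2 against 17.9 and 14.7 FPKM, and *Cd101*, a surface marker of mature neutrophils, at 14.1 and 14.5 against 11.9 and 12.6 FPKM. The lower gene was *Cd14*, the coreceptor for lipopolysaccharide, at 12 and 12.5 FPKM in *Dhps* ΔLysm and 17.6 and 15.3 FPKM in *Dhps* fl/fl (log2 fold change -0.42, SE 0.092, limma adjusted p = 0.51). *S100a9*, the most abundant of the 14, overlapped between genotypes.

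Among 92 genes of the other lists, the one whose centered log2 values over the 4 libraries were nearest to those of each marker was determined as a description. It was *Ly9*, a SLAM receptor gene, for *Ly6g* (root mean square difference 0.032), *Cd101* for *Ly6c2* (0.045, with *Cd48* equal at these digits), *Vcam1*, an adhesion molecule gene of splenic macrophages, for *Ly6c1* (0.020), *Lcn2*, which encodes the granule protein lipocalin 2, for *Gpr84* (0.021, with *Cd101* equal at these digits), *Clec5a* for *Cd84* (0.034), *Siglece* for *Olr1* (0.029) and *Ffar2* for *Cd33* (0.025). *Slc27a2* was left out for its low level. With 4 libraries that share 1 comparison, such likeness rests on few values.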

How the data were processed

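Bulk RNA was sequenced from sorted splenic PMN-MDSCs, and samples were grouped by the genotype in the labels. The deposited values are FPKM per gene, which the authors calculated with StringTie 2.1.6 and ballgown from reads filtered with Cutadapt 1.9 and aligned to mm10 with HISAT2 2.2.1. FPKM scale a gene by transcript length and library, so a few abundant genes can lower all others; the 10 most abundant genes held 29.9% to 31.4% of the sum. Raw counts were not used here, and no scaling between libraries was stated.

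From these values, log2(FPKM + 0.1) was compared, for genes averaging 0.1 FPKM or more, with limma 3.58.1 in R 4.3.3 (mean-variance trend, Benjamini-Hochberg adjustment over all genes, threshold 0.05, no replicate block), after a test on simulated data. The pseudocount understates changes of low genes. Depth was estimated from steps between low values of single-exon genes. Python 3.11.15 with scipy 1.17.1 (exact permutation tests of ratios), matplotlib 3.10.9 and MAFFT 7.526 (alignment of coding sequences) were used for other steps. Of the gene identifiers 28511 were in GENCODE M21 (GRCm38), which gave coordinates, and 74 were not. Promoter sequences are from RefSeq (GRCm38.p6).

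The 8 genes and all lists were chosen with earlier results of these data known, so counts over lists are descriptions. The text names the 8 genes, *Dhps*, *Itgam*, in each list the gene with the highest mean and up to 5 with an unadjusted p under 0.05, and the genes most like each marker; *Ly6a2* and some markers were named after their values had been seen. Of the listed genes, 8 had no matching symbol and are not used here, and single values of some others are not reported here. Alternatives were other pseudocounts, filters and scalings, no trend, a replicate block and leaving out each library.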

Additional observations from a re-analysis of the deposited data

How the results depend on the processing

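With 2 libraries per genotype, none of the 8 marker genes passed an adjusted p of 0.05 in limma under any of the 13 alternatives. The log2 fold change of *Ly6g* ranged from 0.21 to 0.35 (adjusted p 0.376 to 0.962), *Ly6c2* from 0.14 to 0.27 (0.389 to 0.962) and *Gpr84* from 0.15 to 0.22 (0.542 to 0.962), with the same sign in each.

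The number of genes with an adjusted p under 0.05, 1 as reported, was 4 with a mean of at least 1 FPKM (*Slc27a2* has no value there), 2 after quantile normalization, 2 after scaling to TPM, 0 without a filter (1675 at an unadjusted p under 0.05), 0 with a pseudocount of 0.01 (1216), and 0 to 0 when each library was left out (719 to 1609). The correlation of deviations of same-numbered libraries was -0.057. With 2 libraries per genotype that of crossed libraries mirrors it (0.057), so it cannot show whether equal numbers share a litter or batch. With a replicate block the count was 0 (1082 at an unadjusted p under 0.05), 0 markers passed and 2 were higher at that p.

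Over 48 genes, 602 of 620 values kept their sign and their side of the threshold, and 18 turned sign. The cause was not tested. These counts say little about stability. Other filters, no trend and a replicate block leave the log2 fold change as it is by design, so no sign could turn there. None of the 48 genes passed the adjusted threshold in the main setting. After scaling to TPM, *Cd84* was at -0.008 and *Olr1* at -0.014. After quantile normalization, *Olr1* was at -0.003 and *Ngp* at -0.031. When each library was left out in turn, *Ly6c1* ranged from -0.026 to 0.264, *Cd84* from -0.061 to 0.109, *Olr1* from -0.026 to 0.062, *Slc27a2* from -0.322 to 0.263, *Cd33* from -0.057 to 0.002, *Itgam* from -0.056 to 0.004, *Clec4a2* from -0.261 to 0.198, *Slc27a4* from -0.043 to 0.014, *Siglecf* from -0.111 to 0.206 and *Hba-a1* from -0.231 to 0.428. Leaving out a library moved the difference in log2 ratio of *Ly6g* to *Ly6c2* between -0.043 and 0.143 and that of *Ly6c1* to *Ly6c2* between -0.276 and 0.039.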
